A study of Rattus norvegicus with 12 samples.

Results

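The genes described here build the membrane skeleton and the actin filaments of cells. They are the spectrins Sptan1 and Sptbn1, the adducins Add1, Add2 and Add3, the tropomyosins Tpm1, Tpm3 and Tpm4, and the Arp2/3 complex subunits Arpc2 and Arpc1b. Every probe set whose only gene symbol in the platform annotation is one of these 10 genes was taken, which gave 32 of the 15923 probe sets of the array. Of these, 26 probe sets of 8 genes reached the level of 4 (log2, mean over all arrays) above which probe sets were tested, out of 9610 tested probe sets in all. The 6 others, among them the only probe sets of Add2 and Arpc1b, were too dim to test.

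Alpha and beta spectrin form long rods that crosslink short actin filaments under the plasma membrane, and in axons this skeleton is arranged as a periodic lattice. Adducins cap the fast-growing ends of those short filaments and help to recruit spectrin to them. Tropomyosins are coiled-coil dimers that lie along actin filaments and govern which other proteins can bind, with many isoforms made from a few genes through alternative promoters and exons. The Arp2/3 complex starts new filaments as branches on the side of old ones and is needed for the growth of dendritic spines, the sites of most excitatory synapses on hippocampal pyramidal neurons.

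RNA came from the microdissected CA1 region of the hippocampus of 12 male Long-Evans rats, 3 to 4 months of age, with 1 Affymetrix RAE230A array per animal. All 12 animals had been trained in a water maze and, 2 to 3 weeks later, swam 8 trials at intervals of 8 minutes in a new maze. The 6 spatial learning animals had orienting cues and a visible platform in a fixed place, while the 6 control task animals had a visible platform that changed place between trials and no informative cues. A probe trial of 90 seconds was given to every animal 1 hour after training, and tissue was taken directly afterwards. The labels name no transgene, drug or mutation, and every animal analysed here was trained, so the comparison is between the 2 kinds of session. Every difference below is the spatial learning mean less the control task mean, in log2 units, and values of different probe sets are not set against each other because each probe set has its own brightness.

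As to the tissue, all 7 CA1 pyramidal markers with a probe set were above the level of 4, and their mean over the list lay between 10.44 and 10.80 in spatial learning arrays and between 10.38 and 10.70 in control task arrays. The control range is wide because of control replicate 6, at 10.70, since the 5 other control arrays reached at most 10.46. All 7 CA1 markers had a higher mean in spatial learning arrays, 3 of them at an unadjusted p under 0.05. Other lists did not all follow. Higher and lower markers numbered 1 and 4 for neurons, 3 and 1 for CA3 and 2 and 4 for oligodendrocytes. Astrocytes had 1 and 6. Dentate granule markers, with Dsp and Tdo2 below the filter, numbered 1 and 3 (mean 7.45 in spatial learning arrays, 7.62 in control task arrays). The 1 blood marker measured, with Alas2 below the filter, was lower, at 10.34 against 10.72 (limma unadjusted p under 0.05). The meningeal list, of which 6 of 9 markers were measured and Col1a2, Col3a1 and Lum were below the filter, was highest in control replicate 6 at 7.95 and spatial learning replicate 6 at 7.70, against at most 6.84 on any other array. The choroid plexus list, 3 of 6 markers measured and F5, Kl and Folr1 below the filter, ranged from 5.70 to 6.05 in spatial learning arrays and from 5.94 to 9.49 in control task arrays, where control replicate 3 was highest. The gap between 3' and 5' signal of the hexokinase control, which widens as RNA breaks down, was 1.65 ± 0.11 in spatial learning arrays and 1.48 ± 0.08 in control task arrays (SD, n = 6 each, exact permutation p = 0.00433, adjusted over 3 control transcripts 0.0130). Those of beta-actin and Gapdh gave exact permutation p of 0.0779 and 0.998. In RNA from whole tissue, fewer cells of a type and less RNA per cell cannot be told apart.

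No member probe set differed between the groups after adjustment over all tested probe sets, and the differences were small. Among the 26 tested probe sets 0 passed at a limma adjusted p of 0.05, which was also the result over all 9610 (0%). The members were chosen with earlier results of these data known, and many of the probe sets share a gene. The shares below therefore only describe them. At an unadjusted p under 0.05 there were 6 of 26 (23.1%), against 10.9% of all tested probe sets. Of these, 3 were higher, 2 of Tpm1 and 1 of Arpc2 (11.5%, against 6.36% of all), and 3 were lower, 1 each of Sptbn1, Add1 and Tpm4 (11.5%, against 4.55% of all). In 0 of the 26 did the groups' ranges separate completely, against 0.635% of all tested probe sets. Of the 26 differences 16 were above 0 (61.5%), against 53.7% of all, and the median difference was 0.03 over the 26 and 0.01 over all, and 80.8% of the member differences were under 0.2 in size, against 92.2% of all. With the hexokinase gap as a covariate the count at unadjusted p under 0.05 was 2 of 26, and that over all tested probe sets 605, against 1048 without it. The 2 were Sptbn1 1390706_at, 1 of the 6 above, and Tpm1 1370513_at, which was not among them. The gap itself nearly separated the groups, at 1.55 to 1.82 in spatial learning arrays and 1.35 to 1.55 in control task arrays. The parts of gap and group therefore cannot be told apart in this fit, which also has wider standard errors. For Sptbn1 1390706_at the SE was 0.07, against 0.05 without the covariate, and the difference -0.24, against -0.22.

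**Figure D1:**
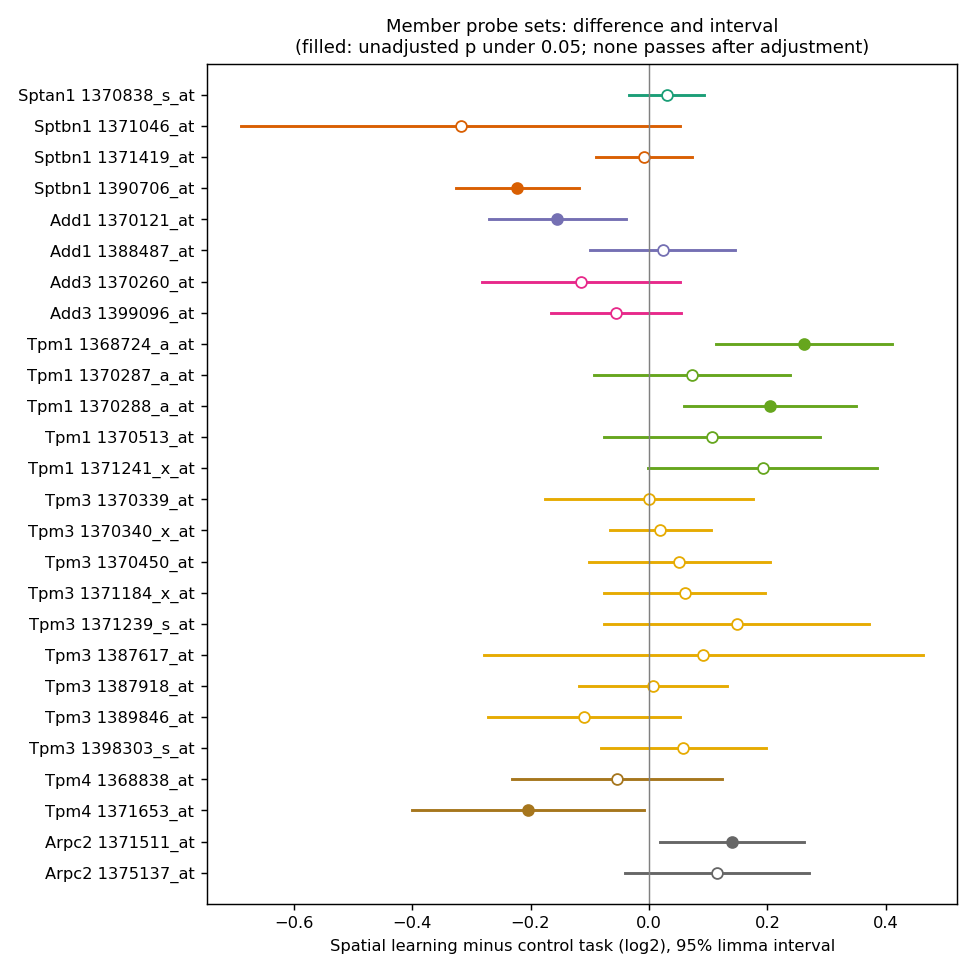
Difference between spatial learning and control task arrays (log2, x axis) for each of the 26 tested probe sets (rows, coloured by gene), with the 95% limma interval, n = 6 arrays per group. Filled points have an unadjusted p under 0.05: the Tpm1 points all lie above 0, the Sptbn1, Add3 and Tpm4 points all lie below 0, and the Tpm3 points lie on both sides of 0.

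No difference was detectable in alpha spectrin. Sptan1, which encodes the alpha II chain shared by most non-erythroid spectrins, ranged from 12.21 to 12.28 with a median of 12.26 in spatial learning arrays, against 12.14 to 12.29 with a median of 12.24 in control task arrays. The ranges overlapped almost entirely. The difference was 0.03 with a 95% limma interval from -0.03 to 0.09.

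Beta spectrin gave a mixed picture across its probe sets. Sptbn1 encodes beta II spectrin, the main partner of Sptan1 in neurons, and its 3 tested probe sets were all on the lower side, at -0.32, -0.01 and -0.22. Probe set 1390706_at had the smallest p of all members, and ranked 17 among the 9610. Its values ranged from 9.82 to 9.997 with a median of 9.83 in spatial learning arrays, against 9.96 to 10.17 with a median of 10.12 in control task arrays. Of the 6 spatial learning arrays, 5 lay below every control, and the sixth, replicate 3, lay within the control range. The difference was -0.22 (SE 0.05, 0.857-fold, limma adjusted p = 0.237), with a 95% interval from -0.33 to -0.12.

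The other Sptbn1 probe sets showed different patterns over the arrays. Probe set 1371046_at ranged from 6.71 to 7.79 with a median of 7.31 in spatial learning arrays, against 7.36 to 7.84 with a median of 7.63 in control task arrays. Its spatial learning values lay apart from each other, with replicates 1, 2 and 6 at 6.71, 6.97 and 7.01, below every control, and replicates 3, 4 and 5 at 7.79, 7.64 and 7.61. That spread gives its difference of -0.32 an interval from -0.69 to 0.05 (limma adjusted p = 0.522). It was -0.20 without spatial learning replicate 1 and -0.17 with the hexokinase gap as a covariate. Probe set 1371419_at ranged from 12.28 to 12.41 with a median of 12.31 in spatial learning arrays, against 12.25 to 12.43 with a median of 12.31 in control task arrays. Its difference was -0.01, with an interval from -0.09 to 0.07. It did not show the lower values of 1390706_at: the gap between these probe sets differed between the groups by 0.21 (exact permutation p = 0.0130, adjusted over all 53 within-gene pairs 0.688), which does not pass after adjustment. Across the 12 arrays their values had Pearson r = 0.04 (permutation p = 0.892) and Spearman rho = 0.14 (permutation p = 0.666), and r = -0.07 without the 2 arrays farthest from the median. The fourth, 1371231_at, lay between 2.34 and 2.40 on every array, below the filter.

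**Figure D2:**
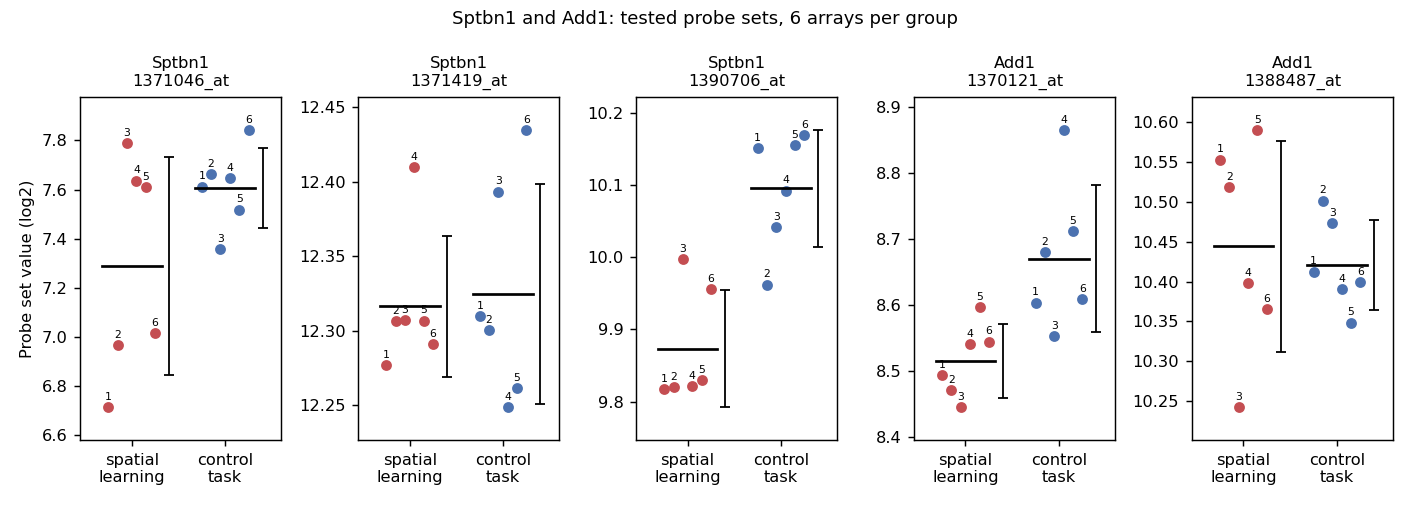
Probe set values (log2, y axis, scaled separately in each panel) of Sptbn1 and Add1 in each array, with spatial learning on the left and control task on the right of each panel and the replicate number beside each point. Bars are group means with SD (n = 6 each): in Sptbn1 1390706_at and Add1 1370121_at 5 of 6 spatial learning points lie below every control point, while Sptbn1 1371419_at and Add1 1388487_at overlap.

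Of the 2 probe sets of Add1, 1 had an unadjusted p under 0.05, and none passed after adjustment. Add1 encodes alpha adducin, the subunit found in nearly all tissues. Its probe set 1370121_at ranged from 8.44 to 8.60 with a median of 8.52 in spatial learning arrays, against 8.55 to 8.86 with a median of 8.64 in control task arrays. Here too 5 of the 6 spatial learning arrays lay below every control. The difference was -0.15 (SE 0.05, 0.898-fold, limma adjusted p = 0.420), with an interval from -0.27 to -0.04. With the hexokinase gap as a covariate it was -0.09 (limma unadjusted p = 0.241). The other probe set, 1388487_at, ranged from 10.24 to 10.59 with a median of 10.46 in spatial learning arrays, against 10.35 to 10.50 with a median of 10.41 in control task arrays, and its difference of 0.02 had an interval from -0.10 to 0.15. The gap between the 2 probe sets differed between the groups by -0.18 (exact permutation p = 0.0433, adjusted 0.865), and their correlation over the 12 arrays was near 0 (Pearson r = -0.05, permutation p = 0.874; Spearman rho = -0.11, permutation p = 0.734). Without the 2 arrays farthest from the median r was 0.30.

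Gamma adducin, encoded by Add3, had both probe sets on the lower side without passing. Probe set 1370260_at ranged from 8.87 to 9.30 with a median of 9.02 in spatial learning arrays, against 9.02 to 9.41 with a median of 9.11 in control task arrays, a difference of -0.11 with an interval from -0.28 to 0.05, and -0.06 without control replicate 6. Probe set 1399096_at differed by -0.06, with an interval from -0.17 to 0.05. Add2 encodes beta adducin, which is known mainly from red cells and brain. Its single probe set lay between 2.26 and 2.31 in spatial learning arrays and between 2.25 and 2.67 in control task arrays, too dim to say whether the gene is expressed or changes here.

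All 5 tested probe sets of Tpm1 had a higher mean after spatial learning, by 0.07 to 0.26, and none passed after adjustment. It encodes alpha tropomyosin, whose brain isoforms are made through alternative exons. Probe set 1368724_a_at ranged from 7.56 to 7.77 with a median of 7.69 in spatial learning arrays, against 7.29 to 7.67 with a median of 7.37 in control task arrays. The 6 spatial learning arrays lay above 5 of the controls, whose highest was 7.40, and the overlap came from control replicate 6 at 7.67. The difference was 0.26 (SE 0.07, 1.20-fold, limma adjusted p = 0.340), with an interval from 0.11 to 0.41. Probe set 1370288_a_at ranged from 9.56 to 9.78 with a median of 9.60 in spatial learning arrays, against 9.31 to 9.69 with a median of 9.34 in control task arrays. Control replicate 6, at 9.69, was again the highest control, and the difference was 0.20 (SE 0.07, 1.15-fold, limma adjusted p = 0.409).

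With each array left out in turn, these differences ranged from 0.24 to 0.32 and from 0.17 to 0.26. Their limma adjusted p ranged from 0.0760 to 0.582 and from 0.0938 to 0.609. Both p were smallest without control replicate 6, where the differences were 0.32 (SE 0.06) and 0.26 (SE 0.05). That array also had the highest meningeal list mean of all arrays and the highest CA1 marker mean of the controls, as given above, and the vessel and mural list, with Pecam1, Tagln and Cnn1 below the filter and 6 of 9 markers measured, was highest there at 6.64, against at most 6.51 elsewhere. Spatial learning replicate 6, the other array with high meningeal markers, stood at 7.63 in 1368724_a_at, inside its group. The CA1 marker mean was 10.66 ± 0.13 in spatial learning arrays and 10.47 ± 0.12 in control task arrays (SD, n = 6 each), so it moved in the same direction as Tpm1. The part of these markers in the Tpm1 values was not tested. With the hexokinase gap as a covariate the differences were 0.21 (SE 0.098) and 0.17 (SE 0.098). Their limma unadjusted p was then 0.0542 and 0.101, and their limma adjusted p 0.774 and 0.788.

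**Figure D3:**
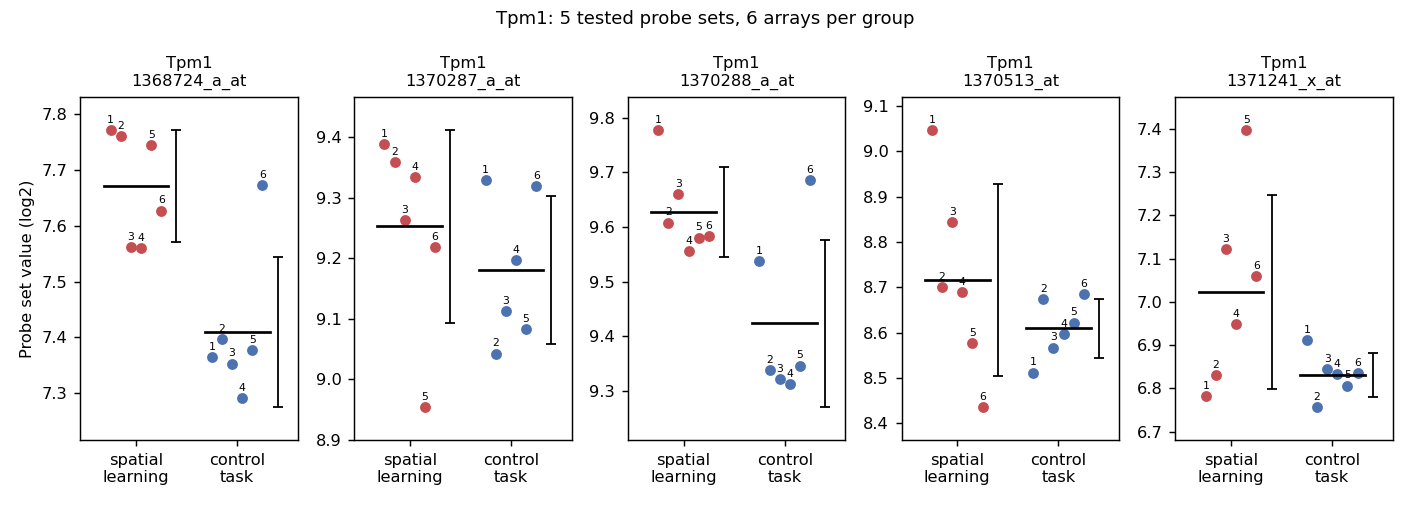
Values (log2, y axis, scaled separately in each panel) of the 5 tested Tpm1 probe sets in each array, spatial learning left and control task right in each panel, with replicate numbers, group means and SD (n = 6 each). Control replicate 6 stands above the other controls in 1368724_a_at and 1370288_a_at, where the 5 other controls lie below every spatial learning array.

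The remaining Tpm1 probe sets also lay above 0, with more overlap. Probe set 1371241_x_at, whose suffix marks probes that can also match other transcripts, ranged from 6.78 to 7.40 with a median of 7.005 in spatial learning arrays, against 6.76 to 6.91 with a median of 6.83 in control task arrays. Its difference of 0.19 had an interval from -0.00 to 0.39, and the spatial learning arrays were spread more widely (SD 0.22) than the controls (SD 0.05). Without spatial learning replicate 5 it was 0.12. Probe sets 1370513_at and 1370287_a_at differed by 0.11 and 0.07, with intervals from -0.08 to 0.29 and from -0.09 to 0.24. The first of them was 0.04 without spatial learning replicate 1, 0.16 without spatial learning replicate 6, 0.17 without the 3 arrays high in choroid plexus or meningeal transcripts, and 0.24 (limma unadjusted p = 0.0497) with the hexokinase gap as a covariate, where the second was 0.02. The sixth probe set, 1371240_at, lay between 2.06 and 2.08 on every array and was not tested.

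Although their differences shared a sign, the Tpm1 probe sets did not all follow the same arrays. Of their 10 pairs, 1 had a correlation that passed after adjustment over the 53 pairs. It was 1368724_a_at with 1370288_a_at, at Pearson r = 0.85 over the 12 arrays (adjusted permutation p = 0.0461) and Spearman rho = 0.88 (adjusted permutation p = 0.0143), and r was 0.77 without the 2 arrays farthest from the median. Which transcripts these 2 probe sets read was not worked out. With each group's mean subtracted their r was 0.71, for which no p was computed. The lowest was 1370287_a_at with 1371241_x_at, at r = -0.37 (permutation p = 0.244, adjusted 0.587; Spearman rho = -0.11, permutation p = 0.734), and r was 0.01 without the 2 arrays farthest from the median and -0.64 with each group's mean subtracted. Both probe sets had spatial learning replicate 5 at an extreme, at 8.95 in the first, below every other array, and at 7.40 in the second, above every other array. In 0 of the 10 pairs did the gap between probe sets differ between the groups after adjustment (smallest exact permutation p = 0.0671, adjusted 0.865). Over the 10 pairs the median r was 0.40.

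Tpm3, which encodes gamma tropomyosin, had the most probe sets of the members, and none of them passed. Of its 9 tested probe sets 7 were above 0 and 2 below, from -0.11 to 0.15, with a mean of 0.04 over the 9 and a smallest limma adjusted p of 0.618. Probe set 1370339_at ranged from 9.49 to 10.05 with a median of 9.64 in spatial learning arrays, against 9.58 to 9.80 with a median of 9.67 in control task arrays, and its difference was -0.00 with an interval from -0.18 to 0.17. Probe set 1370340_x_at gave the narrowest interval, from -0.07 to 0.10. It and 1371184_x_at carry the suffix described above for Tpm1 1371241_x_at. Probe sets 1370339_at, 1370340_x_at, 1387918_at and 1398303_s_at share a source sequence, so the 9 do not all come from separate sequences. The highest difference, 0.15 in 1371239_s_at, had an interval from -0.08 to 0.37, and was 0.07 without control replicate 4. The 36 pairs of Tpm3 probe sets had a median Pearson r of 0.13, from -0.57 to 0.55, and 0 passed after adjustment. The 2 others, 1376929_at and 1388268_at, stayed below 3 on every array and were not tested.

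Tpm4, a short tropomyosin of non-muscle cells, was below 0 in both probe sets, 1 of them with an unadjusted p under 0.05, and passed in neither. Probe set 1371653_at ranged from 8.21 to 8.50 with a median of 8.24 in spatial learning arrays, against 8.20 to 8.78 with a median of 8.48 in control task arrays. The ranges overlapped, and the lowest control, replicate 3 at 8.20, lay below all spatial learning arrays. The difference was -0.20 (SE 0.09, 0.868-fold, limma adjusted p = 0.447), with an interval from -0.40 to -0.01. Without control replicates 3 and 6 and spatial learning replicate 6, the arrays high in choroid plexus or meningeal transcripts, it was -0.33 (limma adjusted p = 0.169). It ranged from -0.26 to -0.15 with each array left out. Its limma unadjusted p was 0.0592 with the hexokinase gap as a covariate and 0.0694 with the replicate block. The exact rank-sum test gave an unadjusted p of 0.132. Probe set 1368838_at differed by -0.05, with an interval from -0.23 to 0.12.

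Arpc2, a core subunit of the Arp2/3 complex that binds the mother filament, was above 0 in both of its probe sets and passed in neither. Probe set 1371511_at ranged from 11.86 to 12.03 with a median of 12.00 in spatial learning arrays, against 11.66 to 12.03 with a median of 11.82 in control task arrays. Control replicate 6 was again the highest control, at 12.03, and the 5 other controls reached at most 11.90. The CA1 marker mean moved in the same direction, and its part in the Arpc2 values was not tested. The difference was 0.14 (SE 0.06, 1.10-fold, limma adjusted p = 0.429), with an interval from 0.02 to 0.26. It was 0.22 without the 3 arrays named above (limma adjusted p = 0.156), and 0.11 to 0.18 with each array left out. Its limma unadjusted p was 0.0778 with the hexokinase gap as a covariate and 0.0669 with the replicate block. Probe set 1375137_at ranged from 9.67 to 10.01 with a median of 9.80 in spatial learning arrays, against 9.51 to 9.86 with a median of 9.71 in control task arrays, a difference of 0.11 with an interval from -0.04 to 0.27. Across the 12 arrays the 2 probe sets had a correlation that did not pass after adjustment, with Pearson r = 0.73 (permutation p = 0.00678, adjusted 0.180), Spearman rho = 0.73 (permutation p = 0.00975, adjusted 0.258) and r = 0.70 without the 2 arrays farthest from the median.

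Arpc1b, the form of the ARPC1 subunit that is abundant in blood cells, lay just under the filter with a mean of 3.97. It ranged from 2.72 to 4.55 with a median of 3.98 in spatial learning arrays, against 3.56 to 4.84 with a median of 4.04 in control task arrays. Just inside the filter were the Tpm3 probe sets 1389846_at, with a mean of 4.45, and 1387617_at, at 4.66. The spread between arrays of a group is wide for Arpc1b (SD 0.67 and 0.49, n = 6 each), and no test was made.

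**Figure D4:**
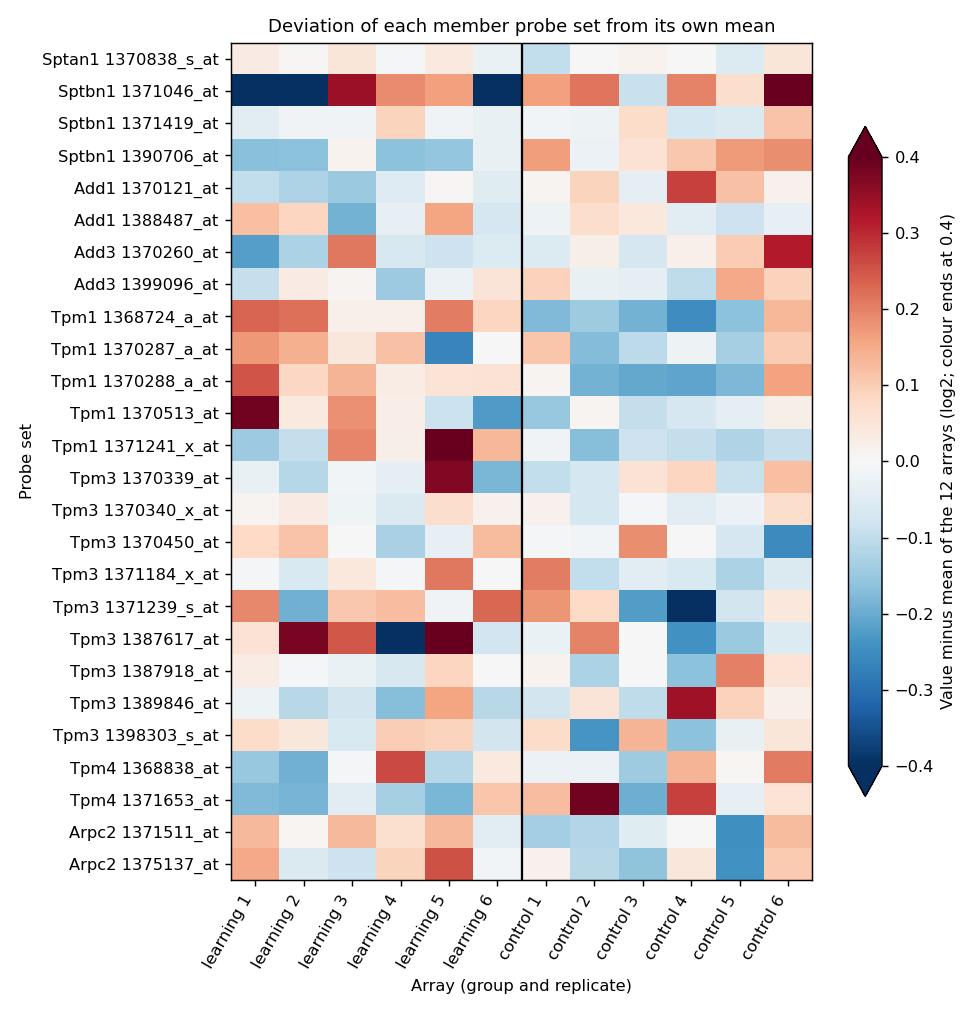
Value of each tested member probe set (rows) in each array (columns, spatial learning left of the line and control task right of it) minus that probe set's mean over the 12 arrays, in log2 units, with colours saturating at 0.4. The Tpm1 1368724_a_at row is red on the left and blue on the right except in control replicate 6, the Sptbn1 1390706_at row is blue on the left except in spatial learning replicate 3 and red on the right except in control replicate 2, and the Tpm3 rows show no pattern common to a group.

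The regions around the annotated gene starts are shown for reference for the genes with a probe set at unadjusted p under 0.05 whose tested probe sets all lay on the same side, chosen after their values were seen: Tpm1 and Arpc2, above 0, and Sptbn1 and Tpm4, below 0. Each window runs from 250 bases before to 50 after the gene start, is taken from RefSeq on the GRCr8 rat assembly and is written 5' to 3' on the gene's strand. Capitals mark the GC box, GGGCGG, on either strand, and no other searched motif overlaps it. The windows are chr8:76543366-76543665, minus strand, for Tpm1, chr9:83269685-83269984, plus strand, for Arpc2, chr14:108217787-108218086, minus strand, for Sptbn1, and chr16:17732434-17732733, minus strand, for Tpm4. Genes with several promoters, such as Tpm1 and Sptbn1, also start transcripts elsewhere.
Tpm1: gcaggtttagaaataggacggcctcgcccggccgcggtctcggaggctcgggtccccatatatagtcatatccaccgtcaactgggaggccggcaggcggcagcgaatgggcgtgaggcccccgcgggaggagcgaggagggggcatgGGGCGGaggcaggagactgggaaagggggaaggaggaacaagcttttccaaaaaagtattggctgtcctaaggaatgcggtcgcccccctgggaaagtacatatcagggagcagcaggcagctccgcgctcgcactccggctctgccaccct
Arpc2: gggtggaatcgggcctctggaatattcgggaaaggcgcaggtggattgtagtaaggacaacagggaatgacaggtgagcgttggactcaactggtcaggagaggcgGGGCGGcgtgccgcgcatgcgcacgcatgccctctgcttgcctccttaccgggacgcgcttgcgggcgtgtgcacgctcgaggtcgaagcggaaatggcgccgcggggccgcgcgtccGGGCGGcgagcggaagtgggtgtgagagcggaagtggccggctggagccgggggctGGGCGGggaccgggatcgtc
Sptbn1: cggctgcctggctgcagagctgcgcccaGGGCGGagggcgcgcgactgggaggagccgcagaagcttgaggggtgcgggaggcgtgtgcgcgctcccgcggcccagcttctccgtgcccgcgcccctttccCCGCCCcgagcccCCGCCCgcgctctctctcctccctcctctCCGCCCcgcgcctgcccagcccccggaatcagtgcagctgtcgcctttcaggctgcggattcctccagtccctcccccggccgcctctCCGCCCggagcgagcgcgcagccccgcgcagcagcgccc
Tpm4: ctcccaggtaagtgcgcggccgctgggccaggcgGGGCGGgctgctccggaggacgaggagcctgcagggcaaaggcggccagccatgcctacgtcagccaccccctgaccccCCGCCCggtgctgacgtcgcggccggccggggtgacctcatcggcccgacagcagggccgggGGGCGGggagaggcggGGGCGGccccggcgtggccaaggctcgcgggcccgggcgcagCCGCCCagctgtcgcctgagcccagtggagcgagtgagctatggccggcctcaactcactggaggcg

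These 4 windows hold 1 GC box in Tpm1, 3 in Arpc2 and 5 each in Sptbn1 and Tpm4, and their GC content is 63.7%, 68.3%, 77.0% and 77.0%. All 10 member genes were matched to 12 RefSeq windows, of which 10 hold a GC box, against 33.1% of all 33469 rat windows. Tpm3 has several windows, some of which overlap and share GC boxes, so the 12 are not all separate stretches. The TATA box TATAAA is in 1 of the 12, that of Sptan1, against 14.2% of all. The cyclic AMP response element TGACGTCA is in 0 of the 12, against 1.83% of all, and the CArG box, the serum response factor motif, in 0, against 1.64%. A match is only a run of letters in these windows.

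The other genes of the same structures, 80 tested genes in 5 lists, did not pass either, with 0 in any list past a limma adjusted p of 0.05. The other genes of the Arp2/3 complex lay mostly on the same side as Arpc2: 5 of 6 differences were above 0, against 53.7% of all tested probe sets, with a median difference of 0.05, against 0.01 over all. The one below 0, named after its value was seen, was Arpc4, at -0.12 with a standard error of 0.15. None had an unadjusted p under 0.05. Arpc5l differed by 0.11, Arpc5 by 0.09 and Arpc3 by 0.07, all of them small subunits of the complex, with standard errors of 0.07, 0.07 and 0.06.

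Among 16 activators and branch regulators of the complex 10 lay above 0 and 6 below, around a median of 0.06. At unadjusted p under 0.05 there were 3 of the 16, all higher, against 6.36% of all tested probe sets on that side. Wipf3, a partner of WASP family proteins, stood at 11.53 ± 0.09 in spatial learning arrays and 11.33 ± 0.10 in control task arrays (SD, n = 6 each), a difference of 0.20 (limma adjusted p = 0.340), but its second probe set differed by -0.01. Cttn, which encodes cortactin, a protein that stabilises branches, stood at 9.81 ± 0.17 in spatial learning arrays and 9.54 ± 0.13 in control task arrays, a difference of 0.27 (limma adjusted p = 0.388), with a second probe set at 0.04. Coro1b, a coronin that takes branches apart, differed by 0.16 (limma adjusted p = 0.429).

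In the spectrin skeleton, 9 of 13 other genes lay below 0 and 4 above, around a median of -0.04, while 53.7% of all tested probe sets lay above 0. At unadjusted p under 0.05 there were 3 lower and 2 higher of the 13, against 4.55% lower and 6.36% higher of all tested probe sets. Epb41l1, the neuronal protein 4.1 that strengthens the contact of spectrin with actin, differed by -0.10 (limma adjusted p = 0.429), with 2 other probe sets at -0.11 and -0.17. Ank2, ankyrin-B, which ties beta spectrin to membrane proteins, differed by -0.15 (limma adjusted p = 0.434). Sptb, the beta I spectrin of red cells and brain, differed by 0.29 (SE 0.12, limma adjusted p = 0.429), on the other side from Sptbn1. The 2 others were named after their values were seen. Tmod2, a tropomodulin that caps slow-growing filament ends, was at -0.29 (limma unadjusted p = 0.0462) in its brightest probe set. It has 2 other tested probe sets, whose differences are not given here. Epb41l2, another protein 4.1, was at 0.11 (limma unadjusted p = 0.0479).

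Actins and the proteins that turn filaments over were divided, with 12 of 22 above 0 and a median of 0.01. None had an unadjusted p under 0.05. Twf2, a twinfilin, differed by 0.15, and the cyclase-associated proteins Cap1 and Cap2 by 0.09 and 0.14. Second probe sets gave -0.03 for Cap1 and 0.13 for Cap2. Crosslinkers and tropomyosin partners lay below 0 in 17 of 23 genes and above it in 6, with a median of -0.03. Of all tested probe sets 53.7% lay above 0. At unadjusted p under 0.05 there was 1 lower of the 23 and 0 higher, against 4.55% lower and 6.36% higher of all tested probe sets. Lcp1, the plastin of white blood cells and microglia, was at 7.81 ± 0.27 in spatial learning arrays and 8.15 ± 0.19 in control task arrays, a difference of -0.34 (limma adjusted p = 0.423). The microglia list, with Cx3cr1 below the filter and 7 of 8 markers measured, ranged from 6.77 to 7.22 in spatial learning arrays and from 6.86 to 7.41 in control task arrays, with all 7 markers on the lower side. Its mean was 6.99 in spatial learning arrays and 7.14 in control task arrays, and its part in the Lcp1 values was not tested. Myh10, a non-muscle myosin, differed by -0.07 and Tagln3, a neuronal relative of transgelin, by -0.10.

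**Figure D5:**
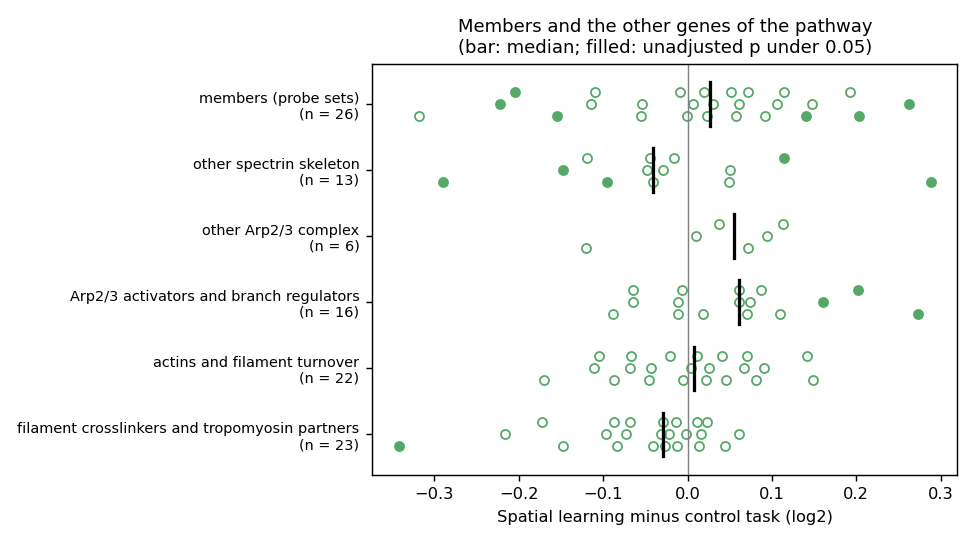
Difference between spatial learning and control task arrays (log2, x axis) for the 26 member probe sets and for the tested genes of 5 lists (rows, 1 probe set per gene), with the median of each row as a bar and filled points for an unadjusted p under 0.05. The 3 filled points of the Arp2/3 activators are Wipf3, Cttn and Coro1b, and medians run from -0.04 in the other spectrin skeleton to 0.06 in the activators.

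For Sptbn1 1390706_at, the genes with the most similar pattern over the 12 arrays once group means were subtracted were Dhtkd1 (r = 0.88), Stmp1 (r = 0.86), Dnpep (r = 0.86), Prtfdc1 (r = 0.82) and Dazap2 (r = 0.81). They are the first 5 of 8008 probe sets with a single symbol from other genes, so values of this size are a description of 12 arrays only. Their own differences between the groups ran from -0.04 to 0.13.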

How the data were processed

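Expression was measured in CA1 RNA of 12 rats, 1 array each, grouped and numbered by the titles of the samples, where each array is called a biological replicate. The deposited values are log2 probe set summaries made by the authors with GCRMA, per the submitters' processing notes, which corrects background by probe sequence, normalizes between arrays and summarises probes. Its version is not given in the sources used here, and the log2 scale was read from the range of the values, 0.134 to 14.8. GCRMA makes array distributions nearly equal and compresses differences of dim probe sets. Correlations between arrays were 0.996 to 0.998, and the 6 arrays per group limit the precision. Scan batches could not be tested, since no source names them.

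Names came from the platform annotation supplied with the table (12783 probe sets with 1 symbol, 312 with several, 2771 with none, 57 controls left out). All 32 member probe sets were matched by Entrez identifier to a reference table on GRCr8. Probe sets with a mean of at least 4 over all arrays were tested, 9610, and 6256 were left out. The test was limma's (version 3.58.1, R 4.3.3; lmFit, then eBayes with trend, 2-sided, with no term besides group) and adjusted by Benjamini-Hochberg over all tested probe sets, with a threshold of 0.05. SEs and 95% intervals are limma's moderated ones. Pairs of probe sets of a gene were compared by the per-array gap between them, with a 2-sided exact permutation test over 924 splits and adjustment over 53 pairs, and correlations used 100000 permutations. The RNA end gaps were adjusted over 3 controls. In simulated data with the real means and spreads, over 9610 probe sets for this comparison, 86% of 100 probe sets changed by 0.5 and 98% of 100 changed by 1 were recovered, with 9 unchanged ones called. Both sets of 100 were changed at once, and noise was drawn separately for each probe set, without differences shared across an array. With fewer true changes the adjustment is stricter, so these shares need not hold in the real data. Changes under 0.5 were not simulated. Recovery at the sizes of the member differences, at most 0.32, was therefore not tested.

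The named genes were all 10 members through every probe set, up to 3 genes of each pathway list by smallest p, markers for the tissue check and the 5 probe sets most like the member with the smallest p. Each list gene was read from its brightest probe set. The 5 pathway lists named 125 genes, of which 95 have a probe set and 80 were tested. Tagln, Cnn1 and Myl9 are in a pathway list and in the vessel list. The members and lists were chosen with earlier results of these data known. Correlations of same-numbered deviations ran from -0.17 to 0.08. They cannot exclude that animals of the same number were paired or processed together, and replicate 6 of both groups had high meningeal markers.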

Additional observations from a re-analysis of the deposited data

Results flagged for a closer look

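In 8 of 64 groups of 6 arrays, 1 array stood far from the other 5 of its group, with a gap above 0.625 of the group's range, and chance flags about 1 in 20 groups. Control replicate 6 was high in 3 of them: Tpm1 1368724_a_at at 7.67 (the other controls 7.29 to 7.40), Add2 1368603_at at 2.67 (2.25 to 2.29) and Tpm3 1376929_at at 2.90 (2.67 to 2.74), the last 2 in probe sets too dim to test. Spatial learning replicate 5 was high in Tpm3 1370339_at at 10.05 (the other spatial learning arrays 9.49 to 9.67) and in Tpm3 1371184_x_at at 5.46 (5.19 to 5.29), and low in the untested Tpm3 1376929_at at 2.66 (2.70 to 2.72). Spatial learning replicate 4 was high in Sptbn1 1371419_at at 12.41 (12.28 to 12.31), and control replicate 1 in Tpm3 1371184_x_at at 5.46 (5.13 to 5.21).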

How the results depend on the processing

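No member probe set passed an adjusted p of 0.05 in any of the 23 other fits with limma or the exact rank-sum test. At unadjusted p under 0.05 the count of members, 6, was 2 with the hexokinase gap as a covariate, 4 with the replicate block, 5 with the rank-sum test and 7 with a level filter of 6, quantile normalization or no intensity trend, and 4 to 7 when each array was left out in turn. Over all tested probe sets the count past an adjusted p of 0.05, 0, was 3 with array weights and 5 without the 3 arrays high in choroid plexus or meningeal transcripts, and 0 to 3 with each array left out, the 3 coming without control replicate 6. The unadjusted count of 1048 was 605 with the hexokinase covariate and 779 to 1141 with each array left out. Of 6 spatial learning arrays 1 correlated best with its own number, which cannot exclude pairing by number. The unadjusted count over all was 769 with the replicate block, where Arpc2 1371511_at and Tpm4 1371653_at had limma unadjusted p of 0.0669 and 0.0694. Of the within-gene pairs 0 differed after adjustment in any setting, and the 2 at unadjusted p under 0.05 were 4 without those 3 arrays and 1 to 5 with each array left out. The difference is the same by construction with another level filter or none, no intensity trend, robust eBayes, the replicate block or the rank-sum test. Those settings could not change a sign. Of 281 member differences in other settings, those included, 7 changed sign, none from a difference over 0.11 in size. With the hexokinase covariate these were Tpm3 1370339_at at 0.0955, 1370340_x_at at -0.00876, 1370450_at at -0.0142, 1387617_at at -0.0582 and 1389846_at at 0.0094, and without the 3 arrays Tpm3 1370339_at at 0.0799 and Sptbn1 1371419_at at 0.0413. With each array left out, 14 of 312 changed sign. Sptbn1 1371419_at ranged from -0.027 to 0.0136, Add1 1388487_at from -0.00556 to 0.064, Tpm3 1370339_at from -0.0745 to 0.0358 and Tpm3 1387918_at from -0.0259 to 0.0468. The cause of these changes was not tested. With each array left out, the median of the other spectrin skeleton genes, -0.04, ranged from -0.0494 to -0.00546, nearest to 0 without control replicate 1, and was -0.0165 without spatial learning replicate 1. That of the activators, 0.06, ranged from 0.0292 without control replicate 4 to 0.0811, was 0.0336 without spatial learning replicate 3 and 0.106 without the 3 arrays, and that of actins and filament turnover, 0.01, from -0.0052 to 0.0294, changing sign without spatial learning replicates 2 or 6 or control replicate 2. That of the crosslinkers, -0.03, ranged from -0.0526 without control replicate 4 to -0.0138 without control replicate 6. With no signal over background in the table, what dim probe sets such as those of Add2 and Arpc1b could show is limited.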
